A study of Drosophila melanogaster with 2 samples.

Results

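Aminoacyl-tRNA synthetase genes of Drosophila melanogaster were examined for binding of Spalt major (Salm), a zinc-finger transcription factor, in embryos. The genes were chosen by symbol: all protein-coding genes of the annotation whose symbol is 1 or 2 amino acid codes of 3 letters followed by RS, with or without the suffix -m for a mitochondrial enzyme. The rule found 33 of 13945 protein-coding genes, 18 cytosolic and 15 mitochondrial. No measured value entered it. The subunit genes alpha-PheRS and beta-PheRS carry a prefix and fall outside it. Cytosolic here means only a symbol without the suffix, and mitochondrial a symbol with it. Under the rule, glutamine, glycine, histidine, lysine and threonine have no gene with the suffix. The symbol does not show whether GlnRS, GlyRS, HisRS, LysRS and ThrRS serve the cytosol alone or the mitochondria as well.

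The assay was chromatin immunoprecipitation followed by sequencing (ChIP-seq). All embryos came from 1 transgenic line that stably expresses salm with GFP at its C-terminal end, and the tagged protein was precipitated with an antibody against GFP. There was 1 group of 2 biological replicates, whole embryos collected over 0 to 16 h, so each value averages over tissues and stages, and no untagged or untreated group was available for comparison. The deposited lists hold 3421 thresholded peaks, 30000 peaks called on both replicates pooled, and 30000 peaks for each replicate. No source used here states read totals, so sequencing depth is unknown.

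Synthetases join each amino acid to its matching transfer RNA and so supply the ribosome with charged tRNAs. The cytosolic enzymes serve translation of nuclear-encoded messages, whereas the mitochondrial enzymes, also encoded in the nucleus and imported, serve the small set of proteins made inside the organelle. These genes are broadly expressed housekeeping genes. Salm itself is best known for roles in the embryonic head and tail, the trachea, oenocytes and sensory organs.

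The promoters below show the sequence under the thresholded summits of AsnRS, GluProRS, IleRS and ThrRS, beside 2 promoters without any pooled summit, those of the cytosolic LeuRS and the mitochondrial MetRS-m. Each is the 200 bp directly upstream of the annotated gene start, read 5′ to 3′ in the direction of the gene, from the RefSeq copy of Release 6, the assembly that dm6 names. The stretches are chr2L:19131955-19132154 (minus strand) for AsnRS, chr3R:23958392-23958591 (minus) for GluProRS, chr3L:22288465-22288664 (plus) for IleRS, chr2L:12103551-12103750 (plus) for ThrRS, chr2L:3514657-3514856 (minus) for LeuRS and chr3R:14259992-14260191 (minus) for MetRS-m. None of the 6 stretches overlaps an annotated exon. The summits lay 50 bp upstream of the AsnRS start, 130 bp upstream of GluProRS, 170 bp upstream of IleRS and 185 bp upstream of ThrRS, inside the stretches shown. Capitals mark matches, on either strand, to 7 short words that were searched: ATCGAT (core of the DNA replication-related element), CACGTG (E-box), GAGAG (the GAGA factor), GGTCACA (core of a fly core promoter motif), AATATT (an AT-rich word like that bound by SALL4, a mammalian relative of Salm), TATAAA (the TATA box) and ATGCAAT (of the kind bound by C/EBP and ATF4 dimers).
AsnRS: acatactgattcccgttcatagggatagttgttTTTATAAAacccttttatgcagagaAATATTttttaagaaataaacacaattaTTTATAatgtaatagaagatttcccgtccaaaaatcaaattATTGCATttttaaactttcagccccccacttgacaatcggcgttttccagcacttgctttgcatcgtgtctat
GluProRS: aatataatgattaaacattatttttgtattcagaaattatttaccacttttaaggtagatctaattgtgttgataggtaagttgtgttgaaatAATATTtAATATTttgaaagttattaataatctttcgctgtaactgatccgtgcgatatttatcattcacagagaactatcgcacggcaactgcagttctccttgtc
IleRS: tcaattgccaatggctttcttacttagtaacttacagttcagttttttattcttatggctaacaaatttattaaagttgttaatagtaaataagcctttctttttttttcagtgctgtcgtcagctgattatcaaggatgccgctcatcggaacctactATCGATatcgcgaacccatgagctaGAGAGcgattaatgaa
ThrRS: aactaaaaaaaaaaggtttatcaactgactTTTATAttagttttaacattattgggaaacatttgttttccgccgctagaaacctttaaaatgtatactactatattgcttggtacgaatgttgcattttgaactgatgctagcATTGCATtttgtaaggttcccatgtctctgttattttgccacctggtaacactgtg
LeuRS: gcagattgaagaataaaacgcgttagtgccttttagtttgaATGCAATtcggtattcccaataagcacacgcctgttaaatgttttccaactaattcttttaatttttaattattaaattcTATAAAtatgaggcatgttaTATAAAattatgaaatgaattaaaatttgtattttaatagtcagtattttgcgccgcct
MetRS-m: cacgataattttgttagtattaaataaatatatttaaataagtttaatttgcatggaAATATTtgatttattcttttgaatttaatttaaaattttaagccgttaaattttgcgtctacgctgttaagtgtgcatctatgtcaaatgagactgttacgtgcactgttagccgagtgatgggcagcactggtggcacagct

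Some cytosolic synthetase genes carried thresholded summits at their own starts, and no mitochondrial one did. A gene is called bound here when a thresholded summit lay in its window, which runs from 2 kb before the gene through its last base. Of the 18 cytosolic genes, 6 were bound (33.3%, exact 95% binomial interval 13.3 to 59.0): AsnRS, AspRS, GluProRS, IleRS, SerRS and ThrRS. Of the 15 mitochondrial genes, 2 were bound (13.3%, interval 1.66 to 40.5), LeuRS-m and PheRS-m. Among all 13945 protein-coding genes 21.4% were bound, and 22.3% of the 6996 genes whose windows were as long as those of the synthetases (3595 to 12949 bp). Both shares of synthetases have intervals that include this background. The compartments were not tested against each other, since genes are not replicates, and the intervals cover counting error over genes only.

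The contrast was wider at the transcription start site (TSS). Within 500 bp of one of their own annotated TSSs, 6 of 18 cytosolic genes had a thresholded summit (exact interval 13.3 to 59.0%) and 0 of 15 mitochondrial genes did (upper bound of the exact interval 21.8%). The background for this position was 13.5% of all protein-coding genes and 15.2% of those with windows of similar length. The intervals of both compartments include these shares. In the pooled list, 17 of 18 cytosolic genes (94.4%, interval 72.7 to 99.9) and 7 of 15 mitochondrial genes (46.7%, interval 21.3 to 73.4) had a summit in the window. The pooled background was 61.4% of all protein-coding genes and 67.5% of those with windows of similar length. Each of these 24 genes also had a pooled summit within 500 bp of its own TSS. The background there was 49.9% of all protein-coding genes and 56.7% of those with windows of similar length. At the own TSS, the summits of IleRS, CysRS and ValRS overlapped no replicate 1 peak, and those of HisRS and TrpRS no replicate 2 peak. Each of the other genes, all 7 mitochondrial ones among them, had one there that overlapped a peak in both replicate lists. The cytosolic interval lies above the background in both pooled measures and the mitochondrial interval includes it. Restricted to genes with a closely spaced divergent start, described further on, the cytosolic interval includes the background of such genes.

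**Figure D1:**
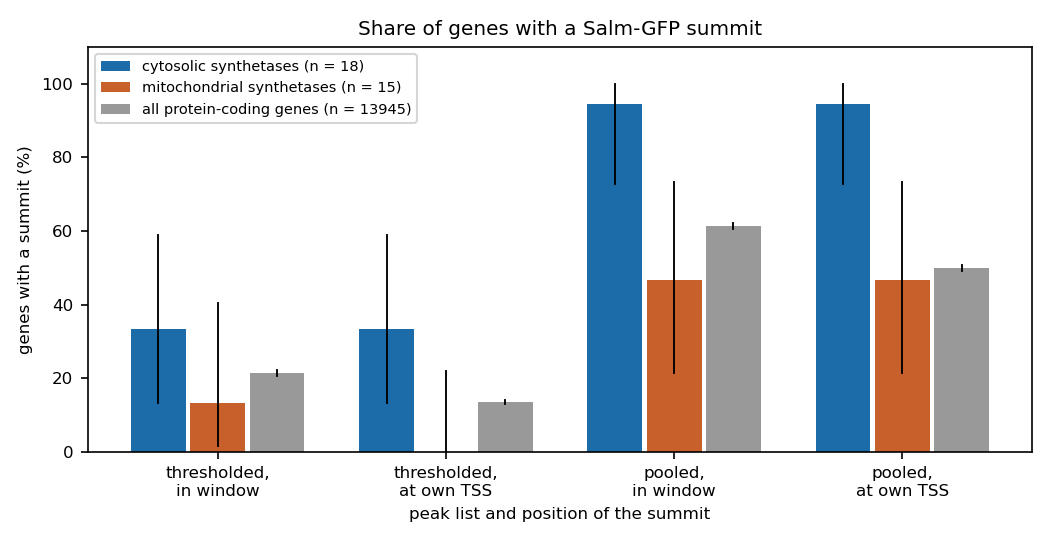
Share of genes (%, vertical axis) with a summit, for thresholded and pooled peaks, in the gene window and within 500 bp of the gene's own TSS. Bars are cytosolic synthetases, mitochondrial synthetases and all protein-coding genes, and lines are exact 95% binomial intervals over genes. The pooled bars of cytosolic genes reach 94.4%, against 46.7% for mitochondrial genes, and the mitochondrial bar for thresholded summits at the own TSS is at 0.

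IleRS, which charges the isoleucine tRNA, had the strongest peak of any cytosolic synthetase. The gene lies on arm 3L, 22288665 to 22292810 (dm6, plus strand), and its single peak spans 22288405 to 22288582 with the summit 170 bp upstream of the TSS. Its signal, the strength value of the authors' peak caller, was 376 in the pooled list (rank 579). In replicate 2 the overlapping peak had a signal of 161 (rank 457). The replicate 1 list holds no peak that overlaps it, and the nearest replicate 1 summit lay 11821 bp from the gene start. This peak therefore rests on 1 of the 2 replicate lists, although it is in the thresholded list. Hem, which encodes a subunit of the actin-regulating SCAR complex, starts 470 bp away on the other strand.

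SerRS and ThrRS had the next strongest peaks, and both replicates listed them. SerRS (arm 2L, 3035493 to 3037403, minus strand) had its summit 10 bp downstream of a TSS, with a pooled signal of 310 (rank 824; peak 3037198 to 3037587). The replicate signals were 195 (rank 812) in replicate 1 and 99.9 (rank 1131) in replicate 2. The scales of the replicate lists differ, so ranks, not signals, can be set side by side. CG17260 starts 8 bp from SerRS in the opposite direction, so the summit is at the start of both genes. ThrRS (arm 2L, 12103751 to 12107170, plus strand) had a pooled signal of 261 (rank 1147; peak 12103371 to 12103760, summit 185 bp upstream). It ranked 1677 in replicate 1 (signal 133) and 813 in replicate 2 (signal 121).

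GluProRS encodes a fusion enzyme that charges both the glutamate and the proline tRNA. It lies on arm 3R, 23952136 to 23958391, minus strand, and its thresholded peak (23958326 to 23958715) had a pooled signal of 212 (rank 1632). The summit lay 130 bp from the starts of both GluProRS and AP-1sigma, a clathrin adaptor subunit gene that runs the other way. Ranks were 2312 in replicate 1 (signal 112) and 1150 in replicate 2 (signal 99.0). A second, unthresholded summit of signal 61.9 lay 25 bp downstream of an internal TSS, and replicate 2 lists no peak that overlaps it.

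AsnRS was close to the threshold, which lies at a pooled signal of 141, the weakest thresholded value. The gene occupies 19129469 to 19131954 on arm 2L, minus strand, and its peak (19131809 to 19132198, summit 50 bp upstream) had a signal of 149 (rank 3080 of the 3421 thresholded peaks). It ranked 5027 in replicate 1 (signal 74.9) and 2386 in replicate 2 (signal 67.0). Further pooled summits in its window lay 117 bp upstream of DCTN6-p27, which encodes a dynactin subunit (signal 70.4), and 92 bp upstream of brat, a translational repressor gene (signal 98.7). Neither passed the threshold.

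AspRS held 2 thresholded summits, and both were nearer to the TSS of another gene. The gene (arm 2R, 12877004 to 12883168, plus strand) has 3 annotated TSSs. The stronger peak (12876449 to 12876838, signal 166, rank 2566) had its summit 360 bp upstream of AspRS but 188 bp downstream of a start of Lfg, a gene on the other strand, another start of which lies 38 bp from AspRS. It ranked 2820 in replicate 1 and 3197 in replicate 2. The other (12878700 to 12879089, signal 152, rank 2987) lay 89 bp upstream of a TSS of Nmda1, a gene on the opposite strand within AspRS, and 1389 bp from the nearest AspRS TSS. It ranked 2329 in replicate 1 and 6771 in replicate 2. Of the 6 pooled summits in this window, the most of any synthetase gene, none was nearest to an AspRS start.

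The bound mitochondrial genes were counted through summits far from their own starts. LeuRS-m, the mitochondrial leucine enzyme gene (arm 3L, 4825853 to 4829038, plus strand), had the strongest peak in any synthetase window, with a pooled signal of 439 (rank 424; 4824909 to 4825119). It ranked 436 in replicate 1 (signal 271) and 459 in replicate 2 (signal 161). The summit lay 915 bp upstream of LeuRS-m, in an intron of Dhc64C, which encodes the cytoplasmic dynein heavy chain, and 749 bp downstream of the start of that gene. At the LeuRS-m start itself, 105 bp upstream, the pooled signal was 99.8 (rank 6280).

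PheRS-m, the mitochondrial phenylalanine enzyme gene (arm 2R, 13968308 to 13969902, plus strand), was bound through a peak of signal 182 (rank 2183; 13966222 to 13966611). It ranked 1635 in replicate 1 (signal 135) and 3962 in replicate 2 (signal 50.6). The summit lay 1891 bp upstream of PheRS-m, near the edge of its window, in an intron and 1244 bp downstream of a start of the cathepsin gene CtsL1. A peak 122 bp upstream of PheRS-m had a signal of 119 (rank 4707), below the threshold, and was the strongest at the own TSS of any mitochondrial synthetase.

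**Figure D2:**
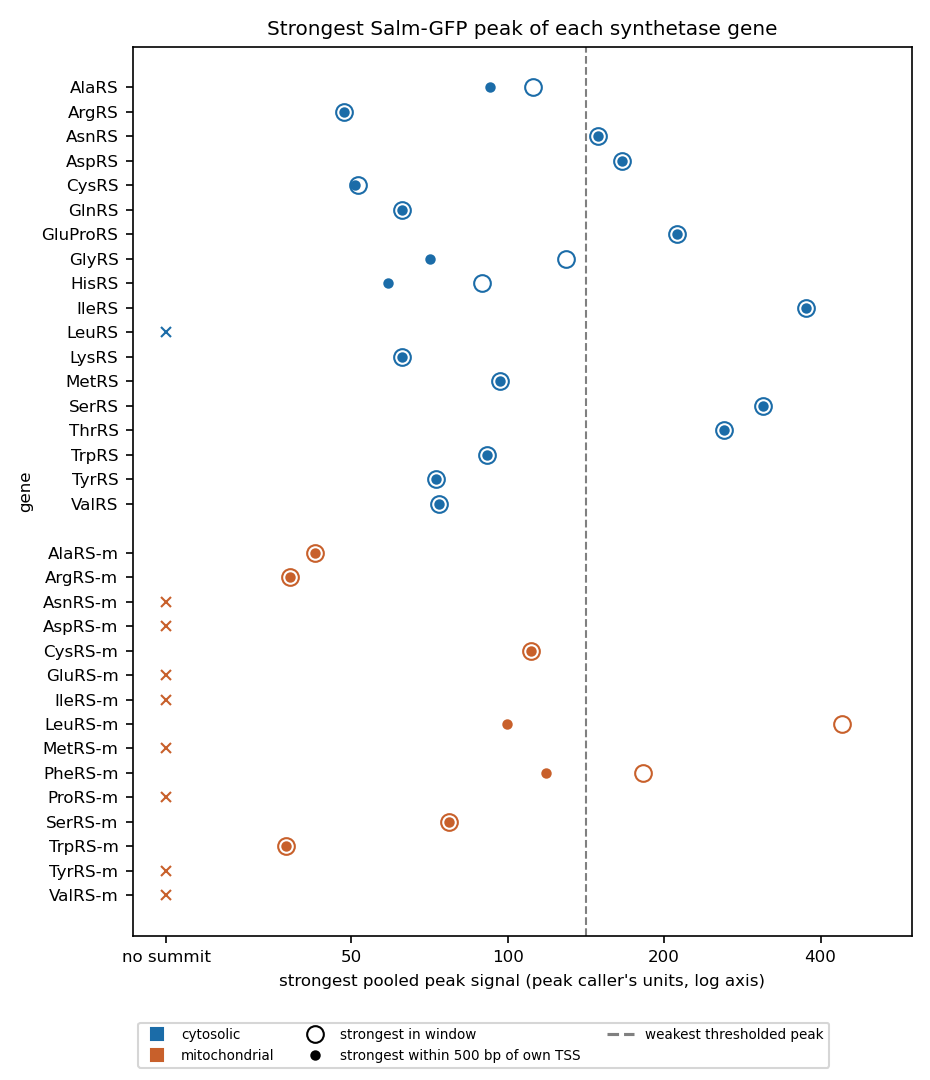
Strongest pooled peak signal of each synthetase gene (log axis, peak caller's units), cytosolic genes above mitochondrial ones. Open circles are the strongest summit in the window, filled dots the strongest within 500 bp of the own TSS, crosses genes without a pooled summit, and the dashed line the weakest thresholded peak (141). LeuRS-m and PheRS-m have open circles right of the line and dots left of it.

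The other 12 cytosolic genes had weaker peaks or none. GlyRS, the glycine enzyme gene, came nearest to the threshold with a pooled signal of 130 (rank 4027), but that summit lay 1127 bp upstream of it, in an intron and 704 bp from the start of sstn. Its own promoter had a signal of 70.9, nearest to Plp, a pericentrin-like gene. AlaRS had 112 at the start of Rcd4, 1125 bp upstream, and 92.5 at 90 bp upstream of its own start. The strongest peaks of these genes at their own TSSs ranged from 48.5 at ArgRS to 96.7 at MetRS (summit 61 bp upstream), all below the weakest thresholded peak.

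Several of these summits sat between closely spaced divergent starts. TrpRS had a signal of 91.1 with the summit 61 bp upstream, 54 bp from the start of Vps16A, a vesicle-tethering complex gene. It ranked 5397 in replicate 1, and replicate 2 has no peak that overlaps it. GlnRS had 62.6 (summit 67 bp upstream, 56 bp from RIOK2) and LysRS had 62.5 (57 bp upstream, 5 bp from Hecw, a ubiquitin ligase gene). TyrRS had 72.8 at 199 bp upstream, nearest to CG33158. ValRS had 4 pooled summits, all nearest to Kdm4B, a histone demethylase gene, and the strongest reached 73.6. Of these, replicate 1 lists an overlapping peak only for the one 1762 bp upstream, not for the strongest.

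CysRS had 50.9 at 141 bp downstream of its start, and replicate 1 lists no peak there. HisRS had 4 pooled summits between 24 and 2101 bp downstream of its start, with signals of 47.0 to 89.3. A transcript of Bx, which encodes a LIM-only protein, starts at the same base as HisRS, so these summits cannot be told apart by gene. Replicate 2 lists no peak that overlaps the HisRS summits at 24 and 227 bp. Weaker summits lay 18 bp from the start of CG8578 in the ArgRS window (34.2), 60 bp from CG30094 in the CysRS window (51.5) and 15 bp from CG15084 in the MetRS window (45.3), where another, in coding sequence, was nearest to CG18190 (33.0). LeuRS was the only cytosolic gene without a pooled summit. Its nearest pooled summit lay 6958 bp from the gene start, although the replicate 2 list alone has a peak of rank 7269 at 175 bp.

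Mitochondrial genes with a pooled summit had mostly low signals at their own starts. After PheRS-m came CysRS-m with 111 (summit 77 bp upstream, ranks 5457 in replicate 1 and 7988 in replicate 2), LeuRS-m, and SerRS-m with 77.2 (422 bp upstream). AlaRS-m (42.6, nearest to Fitm, a fat storage gene), ArgRS-m (38.1) and TrpRS-m (37.4) followed, near the weakest pooled signal of 31.3. Over the genes that had one, the median of the strongest signal at the own TSS was 91.1 in 17 cytosolic genes and 77.2 in 7 mitochondrial genes, against 92.7 in 6954 protein-coding genes. The difference between these medians was not tested.

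No pooled summit lay in the windows of AsnRS-m, AspRS-m, GluRS-m, IleRS-m, MetRS-m, ProRS-m, TyrRS-m and ValRS-m. MetRS-m has the longest gene body of all synthetases, 10949 bp, and its nearest pooled summit was 18081 bp from the gene start. Neither replicate list had a summit in the windows of AsnRS-m, IleRS-m, MetRS-m and ValRS-m. ProRS-m and GluRS-m had summits in each replicate list yet none in the pooled list. Their best ranks were 5493 in replicate 1 and 16537 in replicate 2 for ProRS-m, and 28316 and 28173 for GluRS-m. GluRS-m and TyrRS lie next to each other on arm 3L in the same orientation, and the TyrRS summit fell just beyond the GluRS-m window, 2324 bp from the GluRS-m start.

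**Figure D3:**
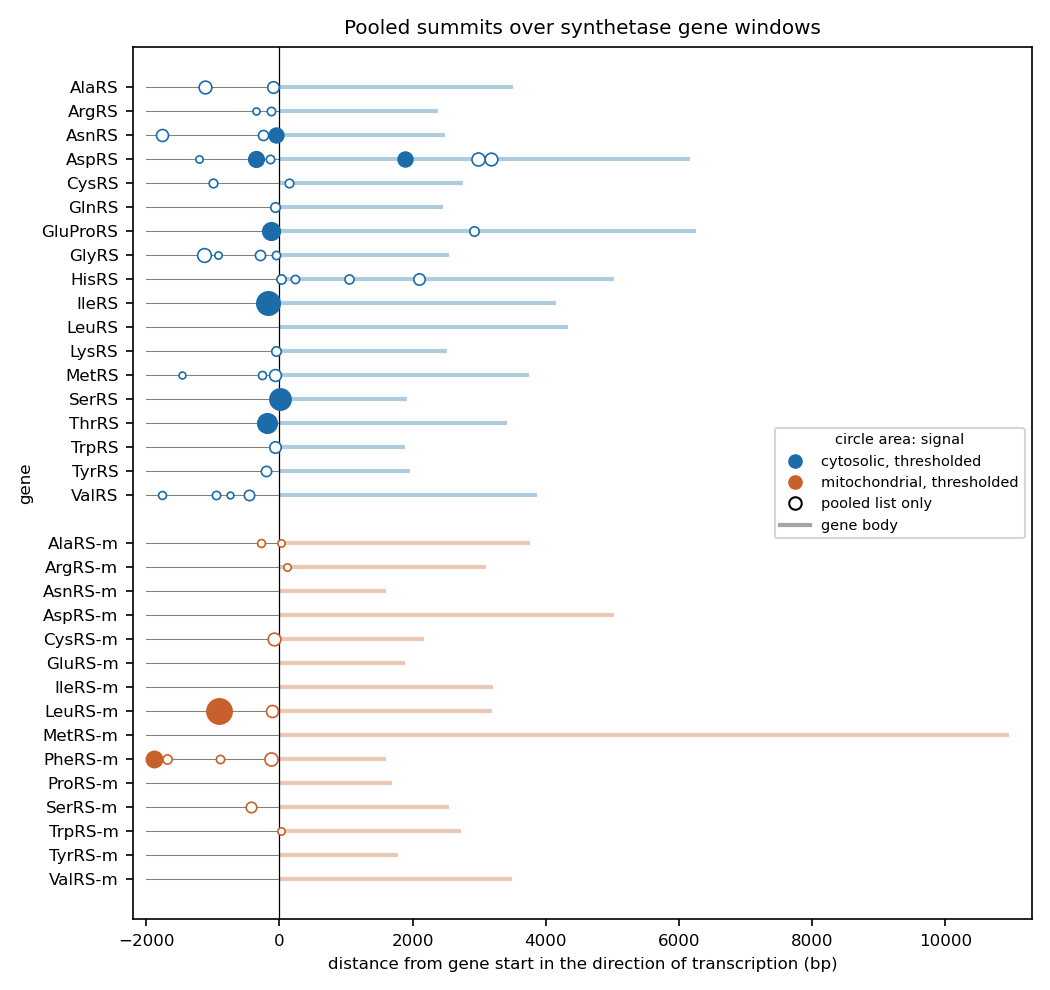
Pooled summits of each synthetase gene by distance from the gene start (bp, in the direction of transcription), with the gene body as a bar and the 2 kb upstream as a thin line. Filled circles are thresholded, open ones are in the pooled list only, and circle area follows the signal. Circles gather near 0 for cytosolic genes, and the filled circles of LeuRS-m and PheRS-m lie 915 and 1891 bp upstream.

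Set side by side by amino acid, the cytosolic gene had the higher pooled signal at its own TSS in 12 of the 14 amino acids that have a gene of each kind under the rule. GluProRS stands in 2 of these comparisons, against GluRS-m and ProRS-m. In 8 of the 12 the mitochondrial gene had no pooled summit at all. SerRS had 310, against 77.2 for SerRS-m, and AlaRS had 92.5, against 42.6 for AlaRS-m. The order was the other way for cysteine (CysRS 50.9, CysRS-m 111) and for leucine (LeuRS with none, LeuRS-m 99.8). These are descriptions of 1 pooled list and carry no test.

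Most summits in the synthetase windows lay near a start. In cytosolic windows, 33 of 39 pooled summits were within 500 bp of some TSS, and 26 were within 500 bp of a TSS of the synthetase. A TSS of the synthetase was the nearest, or tied for nearest, for 15 of the 39, and another gene's was nearest for 24. In mitochondrial windows, 8 of 12 pooled summits were within 500 bp of a TSS, 3 lay in introns and 1 in coding sequence. The share of pooled summits within 500 bp of the gene's own TSS was 66.7% in cytosolic and 66.7% in mitochondrial windows, against 32.0% over all protein-coding genes and 48.0% over genes with windows of similar length. All 7 thresholded cytosolic summits were within 500 bp of a TSS, and both mitochondrial ones lay in introns of other genes. No summit was shared between synthetases. Of the 51 peaks, 38 of the 39 cytosolic and 11 of the 12 mitochondrial ones were 390 bp wide, the commonest width in the pooled list (95.4% of peaks).

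Closely spaced divergent starts were common among cytosolic synthetase genes. A gene is called head-to-head here when the nearest TSS upstream of its start on the other strand is at most 500 bp away. This held for 14 of 18 cytosolic genes (77.8%) and 7 of 15 mitochondrial genes (46.7%), against 28.4% of all protein-coding genes. All 6 cytosolic genes with a thresholded summit at their own TSS were head-to-head, so that 6 of 14 head-to-head cytosolic genes and 0 of the other 4 had one. Among all protein-coding genes the share was 23.4% for head-to-head genes and 9.53% for the rest. In the pooled list, 13 of the 14 head-to-head cytosolic genes had a summit in the window and at the own TSS (interval 66.1 to 99.8%). The shares of all head-to-head genes, 75.4% in the window and 70.3% at the own TSS, fall inside that interval. None of the 7 head-to-head mitochondrial genes had a thresholded summit at its own TSS, and none of the other 8. How far the arrangement of starts bears on the difference between the compartments was not tested.

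Ranks in the replicate lists were close for some thresholded synthetase summits and far apart for others. Of the 9 summits, 5 were among the 3421 strongest peaks of each replicate: those of LeuRS-m, SerRS, ThrRS, GluProRS and the stronger one of AspRS. The second AspRS summit and that of PheRS-m reached that rank in replicate 1 only, and those of AsnRS and IleRS in replicate 2 only. With the 3421 strongest peaks of replicate 1 alone (without replicate 2), 4 cytosolic genes were bound, and AsnRS and IleRS were not. With those of replicate 2 alone (without replicate 1), 7 were bound, GlyRS being added. The count of mitochondrial genes was 2 with replicate 1 alone and 1, LeuRS-m, with replicate 2 alone. The other 42 pooled summits overlapped a peak of both replicates in 33 cases, of replicate 1 only in 4 and of replicate 2 only in 5.

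**Figure D4:**
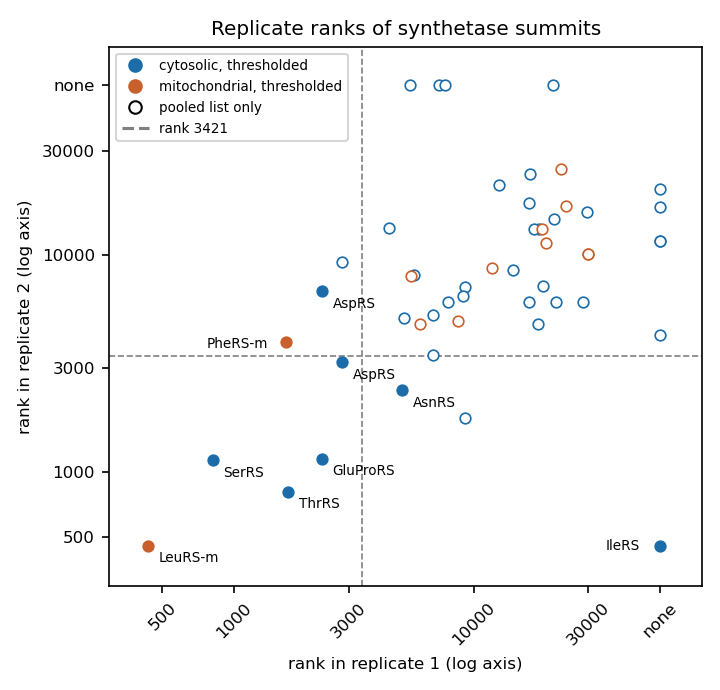
Rank of the overlapping peak in replicate 1 (horizontal) and replicate 2 (vertical), log axes, for each pooled summit in a synthetase window; "none" marks no overlapping peak. Filled points are thresholded and named, and dashed lines mark rank 3421. LeuRS-m is at 436 and 459, while IleRS has rank 457 in replicate 2 and no peak in replicate 1.

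The searched words were scattered over the promoters with no word common to the bound genes. ATCGAT occurred in the 200 bp upstream of 7 of 18 cytosolic genes and 1 of 15 mitochondrial genes, against 18.9% of all 13945 protein-coding genes. Of the 6 genes with a thresholded summit at their own TSS, only IleRS had it, 41 bp upstream, and TrpRS had 3 copies without a thresholded peak. ATGCAAT, printed in capitals on one strand or the other, stood upstream of AsnRS, ThrRS and LeuRS. It was in 3 of 18 cytosolic and 0 of 15 mitochondrial promoters, against 4.51% of all. LeuRS has the word and no pooled summit.

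The AT-rich word AATATT stood upstream of AsnRS, GluProRS and PheRS-m among the bound genes, and in total upstream of 4 of 18 cytosolic and 4 of 15 mitochondrial genes, against 22.6% of all promoters. TATAAA was in 10 of 18 cytosolic and 6 of 15 mitochondrial promoters (36.9% of all). GAGAG was in 2 of 18 and 1 of 15 (22.1% of all), GGTCACA in 2 and 1 (4.98%) and CACGTG in 1 and 1, at GlnRS and LeuRS-m (2.22%). Overlapping matches of a word count separately, and words of different kinds were searched independently. A match is a description of these letters and was not tested. The median GC content of the same stretches was 34.5% for cytosolic, 31.5% for mitochondrial and 37.5% for all protein-coding genes.

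Genes that work beside the synthetases were counted in the same windows. Of 9 partner genes (remaining synthetase subunits and paralogues, scaffolds of the multisynthetase complex, and the glutamyl-tRNA amidotransferase), 1 was bound and 5 had a pooled summit, against 21.4% and 61.4% of all protein-coding genes, and these counts are near that background. The bound one was GatA, an amidotransferase subunit gene (signal 205), with the summit 104 bp upstream and 30 bp from the start of P5cr. alpha-PheRS, a subunit gene of the cytosolic phenylalanine enzyme, had a pooled signal of 68.7 at 61 bp upstream, and beta-PheRS, for the other subunit, had none. Slimp, AIMP1 and GatB had none either, and AIMP3 (55.7), GatC (91.6) and AIMP2 (43.0) had weak ones. The GatC summit lay 148 bp upstream, 84 bp from the start of Polr2C.

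RNaseZ, which trims the 3′ ends of tRNA precursors, had a pooled signal of 104 at 33 bp upstream. A list of 5 genes was drawn up around the response to uncharged tRNA: Gcn2, PEK, crc, eIF2alpha and Thor. All had a pooled summit in the window (61.4% of all protein-coding genes) and 1, Thor, was bound (21.4% of all). The strongest summit in the eIF2alpha window lay 1569 bp upstream, nearest to eIF4H1. Thor had 2 thresholded summits, of which the stronger (signal 160) lay 259 bp upstream. Thor encodes the translation inhibitor 4E-BP. Gcn2, the kinase that senses uncharged tRNA, had 125 at 249 bp upstream, 107 bp from the start of Ugt35D1. The gene crc, which encodes the fly ATF4, had 9 pooled summits with a maximum of 125. None of the Gcn2 and crc summits passed the threshold.

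Genes for mitochondrial ribosomal proteins, the other large set of nuclear genes for translation in the organelle, gave different counts from the mitochondrial synthetases. The mitochondrial synthetases had a thresholded summit at their own TSS in 0 of 15 genes and a pooled summit in the window in 7 of 15. Of 73 mitochondrial ribosomal protein genes, 15 (20.5%, interval 12.0 to 31.6) had a thresholded summit at their own TSS and 59 (80.8%, interval 69.9 to 89.1) a pooled summit in the window. The synthetase intervals, 0.0 to 21.8% and 21.3 to 73.4%, overlap these in both measures. The windows also differed in length, with medians of 2909 bp for the ribosomal protein genes and 4727 bp for the mitochondrial synthetases. Among all protein-coding genes the shares were 13.5% and 61.4%. A thresholded summit in the window was present in 2 of 15 mitochondrial synthetases (13.3%) and 18 of 73 ribosomal protein genes (24.7%). The share of all protein-coding genes for that measure was 21.4%. The difference between these sets was not tested.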

How the data were processed

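ChIP-seq peak lists of 2 biological replicates of 1 group were used. Per the labels, chromatin was sonicated and fragments ranged from 200 to 800 bp. The authors made a peak list against a control for each replicate and for the pooled replicates, per the texts deposited with the files. They also made a thresholded list with IDR (irreproducible discovery rate), which compares peak ranks between lists. Which lists were compared was not resolved here. Both replicates entered the thresholded list, so the replicate ranks are not independent of it. The control was not analysed here. No source used here gives the aligner, the caller or the threshold. The deposited signal is the caller's strength per peak. It is used only to describe and rank peaks within a list. The deposited −log10 q-value has a ceiling that all 3421 thresholded peaks share (4.08), so it ranked nothing. Every thresholded peak is also in the pooled list.

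Summits (peak start plus offset) were assigned to genes of Ensembl release 115 (FlyBase annotation 6.54; dm6 is Release 6) on 6 arms. A replicate peak was matched by an overlap of at least 1 bp, taking the nearest summit. Intervals are exact (Clopper-Pearson) at 95%. With 1 group there was no test. Every synthetase gene is named, as are nearest genes and bound members of the other lists; unbound members of those lists were named after their values were seen. Counts over tRNA maturation genes are not reported here. The members and lists were chosen with earlier results of these data known. Words were searched in promoters; peaks were not searched. Window counting was tested on simulated data. Alternatives changed the peak list, the replicate used, the window and the assignment of summits. The tools were scipy 1.17.1 for intervals, matplotlib 3.10.9 for figures, and pandas 2.3.3 with numpy 2.4.6 under Python 3.11.15.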

Additional observations from a re-analysis of the deposited data

How the results depend on the processing

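The count of 6 bound cytosolic genes ranged from 4 to 7 when 1 replicate was left out and from 4 (strongest 50% of peaks) to 8 (5 kb upstream) under the other alternatives. The bound share of all protein-coding genes was 21.2% to 21.3% with 1 replicate left out. It was 12.5% with the strongest 50% of peaks, 19.1% with 1 kb upstream and 28.2% with 5 kb upstream. With summits within 500 bp of the gene's own TSS it was 13.5%. With each summit given to the single gene with the nearest TSS it was 15.3%. The cytosolic counts under those last settings were 6 and 5. The count of 2 bound mitochondrial genes ranged from 1 to 2 when 1 replicate was left out. It was 1 with the strongest 50% of peaks and with 1 kb upstream, where PheRS-m was lost, and 0 with summits within 500 bp of the gene's own TSS or given to the single gene with the nearest TSS, since both summits lie nearer to other genes. It was 3 with 5 kb upstream. In the pooled list, the 17 cytosolic genes became 11 of 18 when each summit was given to the gene with the nearest TSS, and 16 or 17 otherwise. The 7 mitochondrial genes became 6 of 15 with that assignment and 10 with either replicate alone or with 5 kb upstream. The pooled background was 52.2% of all protein-coding genes with the nearest-TSS assignment, so the cytosolic excess over background was smaller there. It was 61.6% with replicate 1 alone, 65.5% with replicate 2 alone and 69.8% with 5 kb upstream. Dropping any summit with a stronger neighbour inside 1000 bp left the bound counts at 6 and 2. No paired analysis was possible because there is only 1 group. Unknown read depth and the fixed length of the lists limit what an absent summit shows.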
